A study of Mus musculus with 6 samples.

Results

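Scavenger receptors are membrane proteins of macrophages, microglia and vessel cells that bind modified lipoproteins, polyanions, microbial products and cell debris and take them up. The 9 genes described here are Msr1, Marco and Colec12 of class A, Cd36 and Scarb1 of class B, Olr1 of class E, Stab1 of class H, the lipopolysaccharide co-receptor Cd14, and Cd5l, a secreted protein of macrophages with scavenger receptor cysteine-rich (SRCR) domains. They were chosen by symbol, and all 9 were found among the 54752 genes of the count tables. In the brain, microglia and the macrophages of vessels and meninges use such receptors to clear lipid, protein aggregates and dying cells, and endothelial cells use some of them for lipid uptake.

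RNA-seq was performed on the right hippocampus of WT C57BL/6 mice (C57BL/6 J in the methods), 3 after a sham operation and 3 after bilateral carotid artery stenosis (BCAS), with 1 library per mouse. The labels give a time of 14 weeks for every mouse, read here as its age. According to the methods the mice were male and were taken 3 weeks after surgery. Mice are numbered as in the sample titles, while the columns of the BCAS count tables carry 2, 3 and 4 for BCAS mice 1, 2 and 3. In BCAS mice both common carotid arteries were wrapped in microcoils, with the narrower coil on the right, whereas sham mice received no coils. The BCAS mice are those that survived the operation, so the comparison does not cover the others. Libraries held 29652456 to 35607098 counts. Of the 9 genes, 7 passed the filter on low counts and were among the 18617 genes tested, while Olr1 and Marco were not. Cd5l and Msr1 passed the filter through BCAS mice alone, since they reached its count level in all 3 BCAS libraries but in 0 and 1 sham libraries. Being tested thus already required them to differ, and their values are given as a description. Differentially expressed genes (DEGs) needed an adjusted P under 0.05 in edgeR's quasi-likelihood test and an absolute log2 fold change above 1. Of all tested genes, 8.47% were up-regulated DEGs by this rule and 0.999% were down-regulated. Neuronal genes of the hippocampus were present in every library, among them Camk2a and Snap25, although the summed level of 8 such markers was 6415 to 6660 CPM (counts normalized to library size) in sham mice and 3214 to 4481 CPM in BCAS mice.

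Of the 9 genes, 5 had an entry among RefSeq's promoter sequences (build GRCm38.p6, the same assembly as mm10). The 250 bases before the start site are shown for Cd5l and Olr1, which were close to 0 counts in sham mice, for Stab1, which was already measurable there, and for Marco, which had no count in any library. Each sequence runs 5′ to 3′ on the gene's strand and ends at the base before the start site. Capitals mark matches to the 2 motifs searched on both strands, which were chosen after the sequences had been read: GAGGAA, a core bound by the myeloid factor PU.1, and TGANTCA, the AP-1 site. No matches overlapped.
Cd5l (chr3:87357631-87357880, plus strand): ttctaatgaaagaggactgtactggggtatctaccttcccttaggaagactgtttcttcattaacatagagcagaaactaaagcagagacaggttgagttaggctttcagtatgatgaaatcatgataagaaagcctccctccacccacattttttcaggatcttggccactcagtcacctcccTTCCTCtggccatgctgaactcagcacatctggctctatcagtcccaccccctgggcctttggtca
Olr1 (chr6:129507166-129507415, minus strand): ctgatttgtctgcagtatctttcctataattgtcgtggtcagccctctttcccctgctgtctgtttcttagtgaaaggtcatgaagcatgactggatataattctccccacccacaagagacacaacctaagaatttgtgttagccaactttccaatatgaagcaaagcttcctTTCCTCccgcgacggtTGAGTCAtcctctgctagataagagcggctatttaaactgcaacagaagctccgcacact
Stab1 (chr14:31168642-31168891, minus strand): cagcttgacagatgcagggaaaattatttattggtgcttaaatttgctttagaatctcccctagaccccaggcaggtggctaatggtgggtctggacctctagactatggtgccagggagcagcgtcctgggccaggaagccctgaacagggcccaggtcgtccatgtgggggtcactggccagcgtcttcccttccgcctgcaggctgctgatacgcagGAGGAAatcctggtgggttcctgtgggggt
Marco (chr1:120505025-120505274, minus strand): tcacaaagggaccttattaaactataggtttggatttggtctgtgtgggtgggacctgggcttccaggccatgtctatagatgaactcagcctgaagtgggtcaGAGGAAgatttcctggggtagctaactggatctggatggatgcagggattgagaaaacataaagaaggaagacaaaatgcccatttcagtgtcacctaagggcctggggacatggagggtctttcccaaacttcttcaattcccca

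The PU.1 core was found in the windows of Cd5l, Olr1, Stab1 and Marco and in 23.3% of 32807 promoter windows of this length. In Cd5l it lay from -66 to -61 relative to the start site, in Olr1 from -76 to -71, in Stab1 from -30 to -25 and in Marco from -146 to -141. The AP-1 site was found in the window of Olr1, from -60 to -54, and in 6.75% of all windows. The window of Cd36 held neither motif. A match describes the sequence and is no evidence of binding.

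After BCAS, 5 of the 9 genes were up-regulated DEGs, namely Cd5l, Msr1, Cd14, Stab1 and Colec12, and none was down-regulated. Cd36 and Scarb1 were tested and were not DEGs. Without Cd5l and Msr1, 3 of the other 5 tested genes were up-regulated DEGs, against 8.47% of all tested genes. All 5 DEGs had every BCAS mouse above every sham mouse, as did Scarb1, which made 4 of these other 5 genes, against 25.3% of all tested genes. Since the RNA came from whole tissue, more cells of a type and more RNA per cell cannot be told apart in any of these changes.

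**Figure D1:**
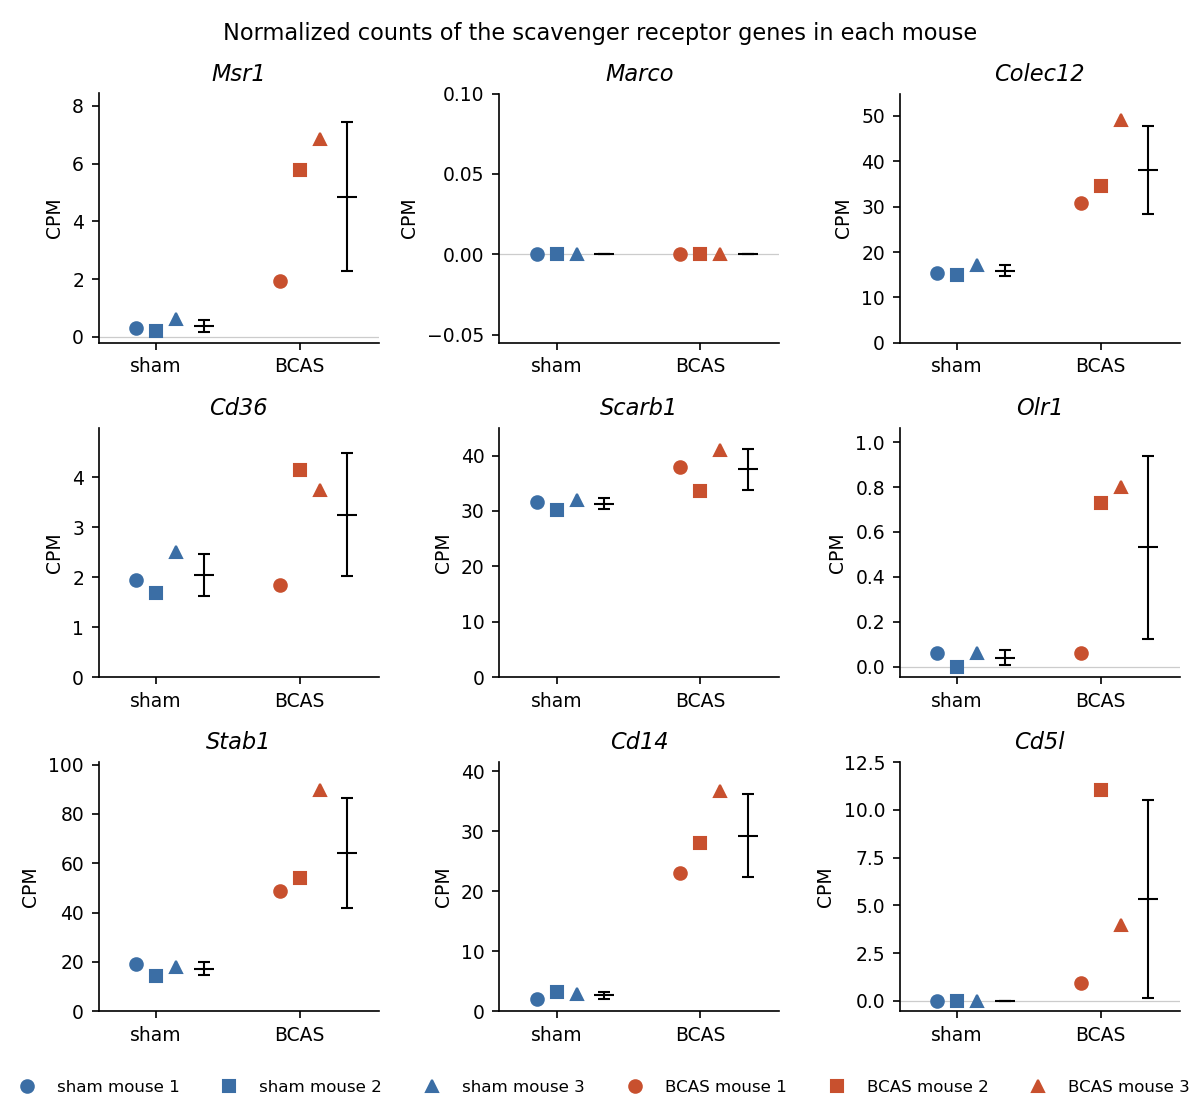
Normalized counts (CPM, vertical axis from 0) of the 9 genes in the 3 sham and 3 BCAS mice. Each point is a mouse, and the bar beside each group is the mean with the SD (n = 3). Cd5l was at 0 in all sham mice, Marco was at 0 in all 6 mice, and Cd36 overlapped between the groups.

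Cd5l (mm10 chr3:87357881-87371073, plus strand), which macrophages secrete and which circulates bound to IgM, had 0 counts in each of the 3 sham mice. It had 31, 333 and 124 counts in BCAS mice 1 to 3, or 0.954, 11.0 and 3.98 CPM. BCAS mouse 2 held the most and BCAS mouse 1 the least, with an 11.6-fold range between them. An observed 0 is compatible with up to 3 counts, or at most 0.0898 CPM in a sham library, and the mean of the BCAS mice was at least 59.3-fold higher than this limit. This bound was 27.5-fold without BCAS mouse 2 and 83.6-fold without BCAS mouse 1. Such limits cover counting error only.

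Msr1 (mm10 chr8:39581685-39642673, minus strand), the class A receptor SR-A1 of macrophages, had 0.295, 0.210 and 0.612 CPM in sham mice 1 to 3. In BCAS mice 1 to 3 it had 1.94, 5.77 and 6.86 CPM. All BCAS mice were above all sham mice, and BCAS mouse 1 was again the lowest. The log2 fold change of Msr1 was 3.69 with a standard error of 0.55 (edgeR, 95% interval 2.43 to 4.94). The sham values rest on only 7 to 21 counts per library, and the gene was tested only through its BCAS counts. Colec12 on chromosome 18, a class A receptor with a C-type lectin domain that is found in vessel-associated cells, had 15.4, 15.0 and 17.2 CPM in sham mice and 30.7, 34.6 and 49.1 CPM in BCAS mice. The groups did not overlap, and Colec12 rose by 1.26 on the log2 scale (edgeR adjusted P = 8.28e-04, standard error 0.17). Its interval of 0.88 to 1.65 includes the fold threshold, and Colec12 did not pass glmTreat, which tests whether the change exceeds that threshold (edgeR adjusted P = 0.359). Marco (mm10 chr1:120474538-120505024, minus strand), which marks some peripheral macrophages, had 0 counts in all 6 libraries, which allows at most 0.0875 to 0.0995 CPM per library.

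Cd14, also on chromosome 18, the co-receptor that hands lipopolysaccharide to TLR4 and also binds apoptotic cells, had 2.04, 3.14 and 2.80 CPM in sham mice. It had 23.0, 28.1 and 36.8 CPM in BCAS mice, so the groups were far apart. Among the BCAS mice, mouse 3 was 1.6-fold above mouse 1. The log2 fold change of 3.46 had the smallest adjusted P of the tested members (standard error 0.22, 95% interval 2.96 to 3.96, edgeR adjusted P = 2.08e-05). Stab1 (mm10 chr14:31139013-31168641, minus strand), a class H receptor of macrophages and sinusoidal endothelium that takes up SPARC and acetylated lipoprotein, had 19.2, 14.3 and 18.1 CPM in sham mice and 48.5, 53.9 and 89.8 CPM in BCAS mice. BCAS mouse 3 was the highest, and the groups did not overlap. Stab1 rose by 1.89 on the log2 scale (edgeR adjusted P = 4.44e-04, standard error 0.23). Without BCAS mouse 3 the log2 fold change was 1.57 for Stab1 and 1.04 for Colec12, and both remained DEGs. Exons of Stab1 share 1.09% of their bases with Nt5dc2 on the other strand, and no other member shares exonic bases with another gene.

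Neither of the class B receptors was a DEG. Cd36 (mm10 chr5:17781690-17888801, minus strand), the fatty acid translocase of endothelial cells, platelets and macrophages, had 1.95, 1.68 and 2.51 CPM in sham mice and 1.85, 4.14 and 3.75 CPM in BCAS mice. BCAS mouse 1 lay within the range of the sham mice, whereas BCAS mice 2 and 3 were above it. The log2 fold change was 0.66 (standard error 0.33, 95% interval -0.08 to 1.41, edgeR adjusted P = 0.156). Without BCAS mouse 1 it was 0.95 with an adjusted P of 0.0282 (edgeR), still under the fold threshold. Scarb1 (mm10 chr5:125277087-125341094, minus strand), the receptor for high-density lipoprotein, had 31.7, 30.2 and 32.0 CPM in sham mice, against 37.9, 33.7 and 41.0 CPM in BCAS mice. The groups did not overlap, but the log2 fold change was small (0.26, with a standard error of 0.09, 95% interval 0.05 to 0.48, edgeR adjusted P = 0.0663). The adjusted P of Scarb1 was 0.0262 without BCAS mouse 2 and 0.0357 when library totals replaced TMM.

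Olr1 (mm10 chr6:129485244-129507165, minus strand), the class E receptor LOX-1 for oxidized lipoprotein, had 2, 0 and 2 counts in the sham libraries. The BCAS libraries held 2, 22 and 25 counts of it. The difference came from BCAS mice 2 and 3 alone, since BCAS mouse 1 had no more counts than sham mice 1 and 3. Summed over mice, 4 counts stood against 49, a ratio of 13.3 after scaling by library size (exact 95% interval 4.86 to 50.6, counting error only). Olr1 did not pass the filter. Without a filter it was an up-regulated DEG with edgeR (log2 fold change 3.62, standard error 0.96, adjusted P = 0.00671), and DESeq2 gave 3.74 (adjusted P = 0.00979). It also entered the test when any single sham mouse was left out, and it was not a DEG in any of those fits. Without BCAS mouse 1 it was tested and was a DEG.

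**Figure D2:**
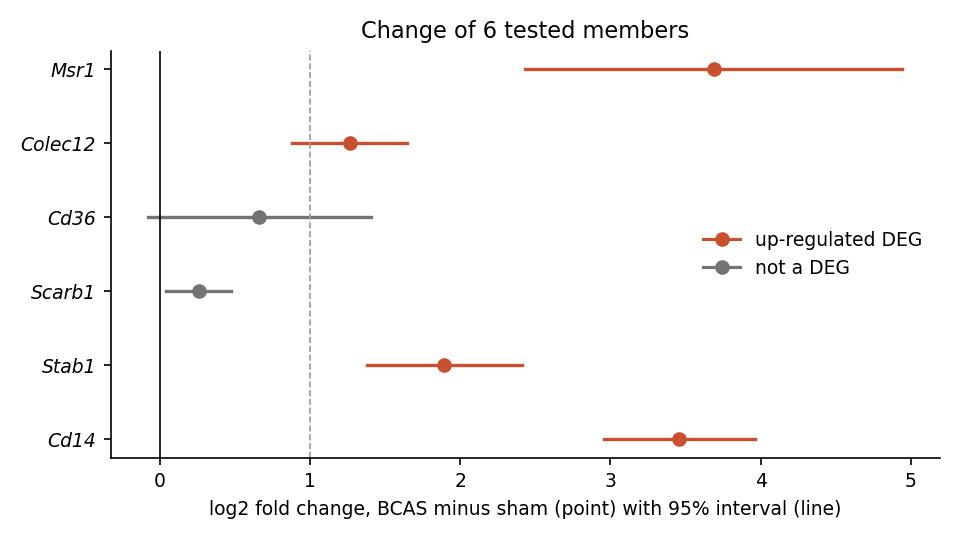
Log2 fold change (BCAS minus sham) of 6 tested members, with 95% intervals from edgeR. The dashed line marks the fold threshold of 1. Cd5l is left out because all sham mice were at 0, and Cd36 and Scarb1 lie below the threshold.

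Levels were compared between genes per kilobase of exon (RPKM, computed from the counts). In sham mice the order was Scarb1 (3.68 ± 0.113 RPKM, SD, n = 3), Colec12 (1.82 ± 0.137), Cd14 (1.69 ± 0.360), Stab1 (1.68 ± 0.252), Cd36 (0.569 ± 0.118), Msr1 (0.0587 ± 0.0334) and Olr1 (0.0110 ± 0.00948), with Cd5l and Marco at 0. Colec12, Cd14 and Stab1 differed by less than their spread. In BCAS mice Cd14 was first with 18.6 ± 4.43 RPKM, followed by Stab1 (6.23 ± 2.18), Scarb1 (4.41 ± 0.430) and Colec12 (4.37 ± 1.11). The last 3 of these overlapped in their values. Their means were followed by those of Cd5l (2.62 ± 2.54), Cd36 (0.905 ± 0.342), Msr1 (0.766 ± 0.407) and Olr1 (0.149 ± 0.114). Cd5l overlapped with genes on both sides of it in this order. It was at 0.469 RPKM in BCAS mouse 1, below all values of Cd36 in BCAS mice and within the range of Msr1 in them. In BCAS mouse 2 it was at 5.42 RPKM, where only Cd14 was higher. Thus Msr1 had a larger log2 fold change than Stab1 but remained a low transcript. Summed over the 9 genes, sham mice had 9.16 to 10.1 RPKM, whereas BCAS mice had 28.6 to 46.9 RPKM. Scarb1 made up 38.8% ± 1.44 of this sum in sham mice and 12% ± 3.06 in BCAS mice (SD, n = 3 each). For Cd14 the share was 17.8% ± 3.92 among sham mice, compared with 49.0% ± 2.59 among BCAS mice, and the groups did not overlap. The share of Stab1 stayed within its spread, at 17.6% ± 2.51 and 16.2% ± 2.55.

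**Figure D3:**
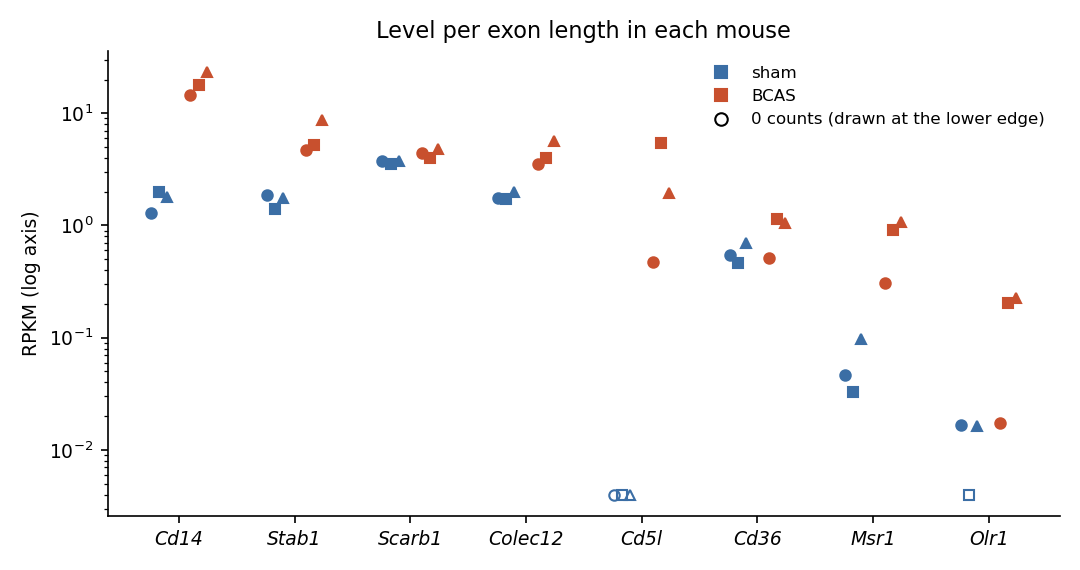
RPKM (log axis) of 8 members in each mouse, ordered by their mean in BCAS mice. Open symbols are libraries with 0 counts. Cd14 was the highest member in BCAS mice (14.6 to 23.4 RPKM) and Scarb1 the highest in sham mice.

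The BCAS mice did not agree equally well for all members. BCAS mouse 1 had less than 50% of the mean of BCAS mice 2 and 3 for Olr1 (a ratio of 0.0804), Cd5l (0.127), Msr1 (0.307) and Cd36 (0.468). The ratio was 0.676 for Stab1, 0.709 for Cd14, 0.735 for Colec12 and 1.01 for Scarb1. A ratio under 0.5 was seen for 7.42% of the up-regulated DEGs of the whole comparison and for 2.7% of all tested genes. All 5 members that were DEGs were lowest within their group in BCAS mouse 1, as were 55.5% of the up-regulated DEGs. Cd14, Stab1, Colec12 and Msr1 were highest in BCAS mouse 3, as were 83.2% of the up-regulated DEGs, whereas Cd5l was highest in BCAS mouse 2. The 8 monocyte markers summed to 141 CPM in BCAS mouse 1, 215 CPM in BCAS mouse 2 and 234 CPM in BCAS mouse 3, against 75.3 to 104 CPM in sham mice. Fn1 and Vcan, which other cells of the brain and its vessels also express, made up 94.2% to 98.8% of this sum in each library. The other 6 monocyte markers, split off after their values were seen, summed to 6.25, 12.2 and 13.6 CPM in BCAS mice 1 to 3 (a ratio of 0.485) and 0.898 to 1.51 CPM in sham mice, and all 6 were lowest in BCAS mouse 1 among the BCAS mice. No gene of the marker lists was at 0 in all libraries. The 8 markers of meningeal fibroblasts summed to 270, 408 and 458 CPM in BCAS mice 1 to 3 and 109 to 220 CPM in sham mice, and 4 of the 8 were lowest in BCAS mouse 1. For the 8 markers of border-associated macrophages these sums were 29.9, 36.7 and 38.1 CPM, with 10.6 to 15.0 CPM in sham mice, and 2 of them, Mrc1 and Cd163, are scavenger receptors themselves. The 10 microglia markers summed to 2005, 2144 and 3216 CPM, so BCAS mice 1 and 2 were close to each other there, and 7 of the 10 were lowest in BCAS mouse 1. Endothelial and astrocyte markers were not lower in BCAS mouse 1 (ratios of 1.05 and 1.04). The 8 neutrophil markers had the lowest ratio of all marker lists in BCAS mouse 1 (0.343), at sums of 0.985, 3.25 and 2.50 CPM in BCAS mice 1 to 3 and 0.808 to 3.15 CPM in sham mice. This ratio rests on few counts, since each gene had 0 to 14 counts in BCAS mouse 1, with 4 of the 8 at 0, and at most 44 in any library. The part of these cell types in the differences between BCAS mice was not tested.

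**Figure D4:**
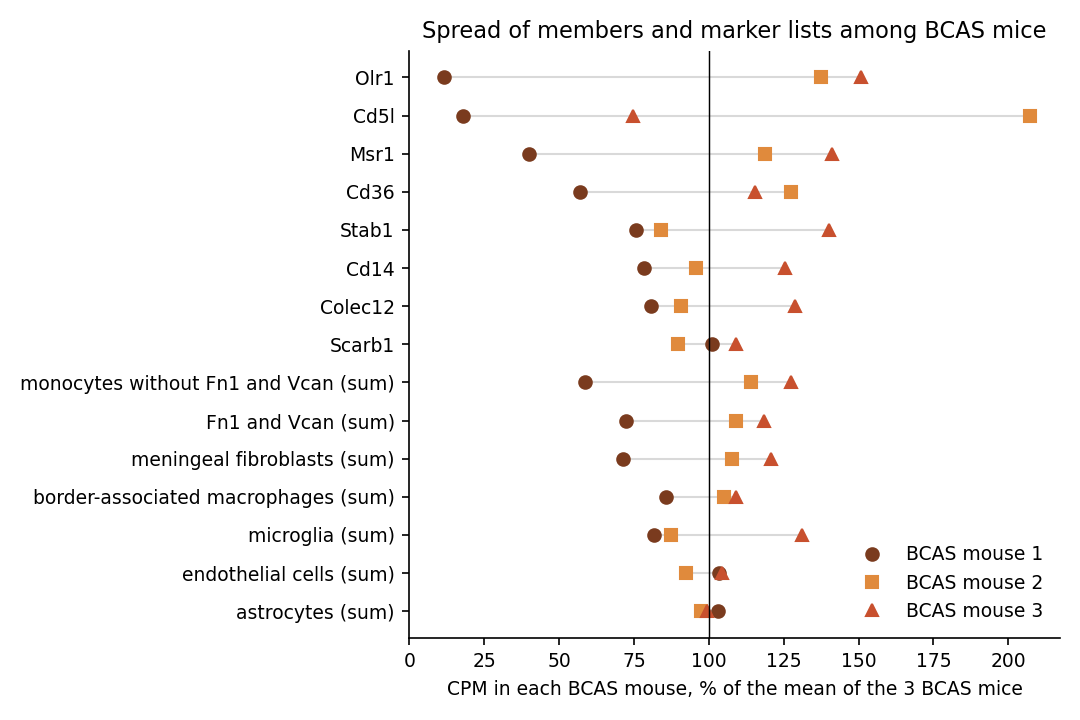
CPM in each BCAS mouse as a percentage of the mean of the 3 BCAS mice, for 8 members and for summed marker lists, with Fn1 and Vcan summed apart from the other 6 monocyte markers. Olr1, Cd5l, Msr1 and Cd36 were lowest in BCAS mouse 1 by more than the other members. The sums of the 6 monocyte markers and of Fn1 and Vcan were also lowest there. So were those of the fibroblast, border-associated macrophage and microglia markers, whereas those of endothelial and astrocyte markers were not.

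All 10 microglia markers were up-regulated DEGs, with a median log2 fold change of 2.64. Sham mice had a mean log2 CPM of 4.75 ± 0.03 for these markers, whereas BCAS mice had 7.29 ± 0.38 (SD, n = 3 each), a difference of 2.55. Each member was set against this mean in the same library. The log2 level of Cd14 relative to the microglia markers was -3.33 in sham mice, compared with -2.45 in BCAS mice, so it gained 0.88 on them without overlap between the groups. Msr1 also gained 0.88, but its groups overlapped, and the gain was 0.57 without BCAS mouse 2 and 1.31 without BCAS mouse 1. Against Csf1r, Aif1 and C1qa alone, 3 of the 10 markers, the gain was only 0.25 for Cd14 and 0.25 for Msr1, and the groups overlapped for both. The gain of Cd14 therefore depends on which markers are used. The difference was -0.70 for Stab1, -1.31 for Colec12, -1.96 for Cd36 and -2.29 for Scarb1, each without overlap, and -0.36 for Olr1, whose groups overlapped. Against the 3 markers the first 4 of these genes were at -1.33, -1.94, -2.59 and -2.92, again without overlap. Cd5l gained 3.31 on this scale, which depends on the prior count because sham mice were at 0. With a prior count of 0.5 its gain was 5.28. At the prior count of 2 it was 2.40 without BCAS mouse 2 and 4.10 without BCAS mouse 1. For Cd14, Stab1, Colec12, Cd36, Scarb1 and Cd5l the exact two-sided permutation test gave P = 0.1, the smallest value that 3 mice against 3 allow. The same exact permutation test gave P = 0.2 for Msr1 and P = 0.8 for Olr1. With 8 members compared in this way, none of these differences could reach a threshold of 0.05.

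**Figure D5:**
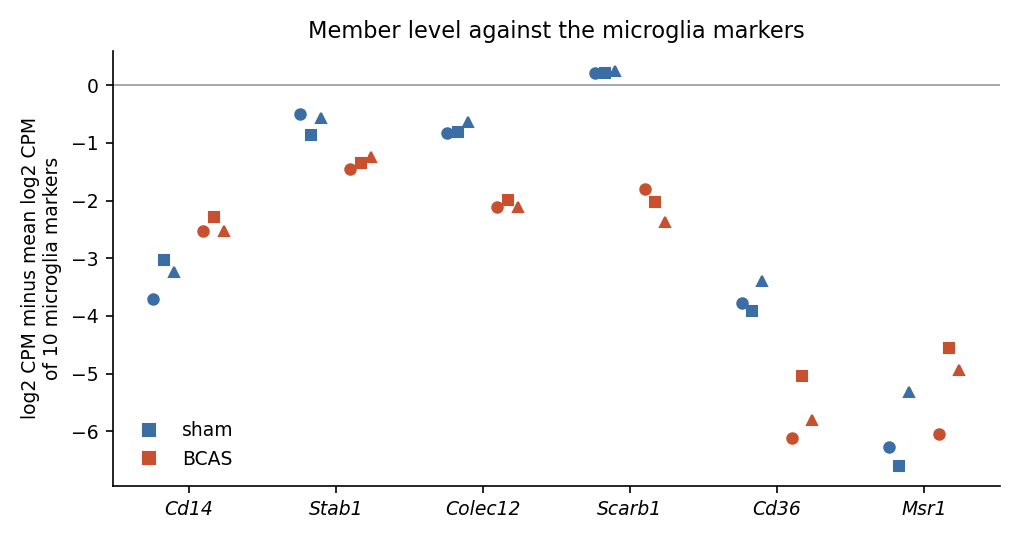
Log2 CPM of 6 members minus the mean log2 CPM of the 10 microglia markers in the same library (points, sham and BCAS mice). Cd14 lies higher in BCAS mice without overlap, a separation that is lost against 3 of these markers alone, whereas Stab1, Colec12, Scarb1 and Cd36 lie lower, as their log2 fold changes were smaller than that of the markers.

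Other scavenger receptors and SRCR proteins were examined as a list of 20 genes, of which 19 were tested. Of these, 12 were up-regulated DEGs and none was down-regulated, against 8.47% and 0.999% of all tested genes. The median log2 fold change of the list was 1.28, against 0.018 over all tested genes. Of the 19, 3 passed the filter through BCAS mice alone, among them Cd5, and 10 of the other 16 were up-regulated DEGs. The largest rises were those of Cd68, a lysosomal scavenger receptor of phagocytes (6.91 ± 0.321 to 124 ± 39.0 CPM, SD, n = 3 each, log2 fold change 4.17, edgeR adjusted P = 1.16e-05), and Lgals3bp, a secreted SRCR protein (log2 fold change 4.10). Cd5, an SRCR receptor of lymphocytes, had only 2, 8 and 3 counts in sham mice and rose by 3.92. Cxcl16, which binds oxidized lipoprotein and is also a chemokine, rose by 3.59, and Fcrls, an SRCR protein of microglia, rose by 3.54. Lrp1, Scarb2 and Scara3 were abundant genes under the fold threshold, with log2 fold changes of 0.66, 0.59 and 0.80 and adjusted P values of 0.00253, 0.00126 and 3.58e-04 (edgeR). The remaining gene, Dmbt1, had 2 counts in all. Stab2, the paralog of Stab1, is named after its values were seen. It had 1.59, 1.86 and 1.57 CPM in sham mice and 1.66, 0.895 and 0.930 CPM in BCAS mice, with a log2 fold change of -0.52 (95% interval -1.25 to 0.21, edgeR adjusted P = 0.252). Scara5, also named after its values were seen, was counted among the 12 although its groups overlapped. It had 1.45, 3.95 and 0.758 CPM in sham mice and 8.34, 3.41 and 8.82 CPM in BCAS mice (edgeR adjusted P = 0.0425). The summed choroid plexus markers were likewise highest within their group in sham mouse 2 and lowest in BCAS mouse 2, with ranges of 229 to 5746 CPM (sham) and 209 to 8559 CPM (BCAS), and their part in the value of Scara5 was not tested.

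Cd14 works with toll-like receptors, and 10 of 15 genes of this partner list were up-regulated DEGs and none was down-regulated. Over all tested genes the shares were 8.47% and 0.999%. The median log2 fold change of the list was 1.89. Of the 15, 2 passed the filter through BCAS mice alone, and 9 of the other 13 were up-regulated DEGs. Tlr2 rose by 4.90 (1.39 ± 0.704 to 41.6 ± 14.6 CPM, SD, n = 3 each, edgeR adjusted P = 4.09e-05), its partners Tlr1 and Tlr6 by 4.05 and 3.26. Cd180 and Ly86, which form a receptor related to TLR4, rose by 4.55 and 4.17. The kinase Irak1 and the ubiquitin ligase Traf6, which carry the signal further, had log2 fold changes of 0.45 and 0.19 and were not DEGs. Their edgeR adjusted P values were 0.0091 and 0.300, and the groups did not overlap for Irak1. Other signalling genes of the list are named after their values were seen. Myd88, Irak4 and Ticam1 were up-regulated DEGs (1.26, 1.89 and 1.10). So was Ticam2 (2.75), which passed the filter through BCAS mice alone. Tirap was not a DEG (0.85, edgeR adjusted P = 0.0165). Lbp, which passes lipopolysaccharide to CD14, was highest in sham mouse 2 (30.7 CPM) and BCAS mouse 1 (44.5 CPM), the same mice as the choroid plexus markers. Its log2 fold change of 0.98 was not called (edgeR adjusted P = 0.294), and the part of choroid plexus tissue in it was not tested.

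Lipids taken up by these receptors are stored, hydrolysed or exported by other proteins. Of 19 tested genes for lipoprotein uptake and lipid storage, 7 were up-regulated and 1 was a down-regulated DEG, with a median log2 fold change of 0.49. Over all tested genes the shares were 8.47% and 0.999%. Ch25h, cholesterol 25-hydroxylase, rose by 5.13 (0.502 ± 0.162 to 17.7 ± 8.30 CPM, SD, n = 3 each, edgeR adjusted P = 4.93e-05). The cholesterol exporter Abca1 rose by 2.35, the lipid droplet protein Plin2 by 2.13, Apoe by 2.10 and the lysosomal sterol carrier Npc2 by 2.08. Fasn, Nceh1 and Vldlr had log2 fold changes of -0.12, -0.35 and -0.17 and were not DEGs. Their edgeR adjusted P values were 0.219, 0.0227 and 0.245, so Nceh1 was left out by the fold threshold alone. The BCAS mice were below the sham mice without overlap for Fasn and Nceh1.

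Among 9 tested ligands and partners of the members, 7 were up-regulated DEGs and none was down-regulated, against 8.47% and 0.999% of all tested genes. The kinase Lyn, which acts below CD36 and toll-like receptors, rose by a log2 fold change of 2.63 (8.63 ± 0.586 to 53.3 ± 18.2 CPM, SD, n = 3 each, edgeR adjusted P = 6.46e-05). Jchain and Ighm, which encode parts of the IgM that carries CD5L, rose by 2.28 and 1.93. Thbs1, a thrombospondin that binds CD36, rose by 2.11. Fyn and Chid1 had log2 fold changes of -0.17 and -0.16 and were not DEGs. The genes of these lists were chosen with earlier results of the same libraries known, and their counts are descriptions.

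For each tested member, the genes with the most similar log2 CPM over the 6 libraries were sought among 15624 genes with a mean of at least 1 CPM. These libraries fall into 2 groups that differ for most of the members, so high coefficients are common and are given as a description. Pearson's r was 0.9994 for Cd14 with Cmklr1 and 0.9993 with Klhl6. Stab1 was nearest to Isg20 (0.9987) and Sla (0.9984), Colec12 to Serpinf1 (0.9996) and Fzd1 (0.9993), and Msr1 to Vat1 (0.9991) and Gdpd3 (0.9977). Cd5l was nearest to Fgfr1op (0.9957) and Cav2 (0.9943), Cd36 to Phf7 (0.9972) and Bub1b (0.9832), and Scarb1 to Xrcc3 (0.9947) and Hus1 (0.9940).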

How the data were processed

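RNA of the right hippocampus of 3 sham and 3 BCAS mice was sequenced as paired ends. Per the methods and the submitters' processing notes, the authors trimmed the reads with Trim Galore, aligned them to mm10 with HISAT2 and deposited the raw count of reads per gene. Per the file headers, featureCounts 2.0.3 (1.6.3 in the methods) was used with GENCODE exons, each mate was counted, without regard to strand and without multi-mapping reads. Totals were 29652456 to 35607098 counts. Symbols were matched for 54723 of 54752 genes.

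Genes were filtered with filterByExpr (18617 kept), normalized by TMM and tested with edgeR 4.0.16 (R 4.3.3), with Benjamini-Hochberg adjustment over all tested genes. Log2 CPM used a prior count of 2. Standard errors are the log2 fold change divided by the root of the F statistic. The P values of edgeR set the difference between the groups against the spread between mice. The code was tested on simulated data. Alternatives were DESeq2 1.42.0, limma-voom (limma 3.58.1), other scalings and filters, a replicate block, halved counts and leaving out each mouse. The members and lists were chosen with earlier results of these data known. The genes named are all members, the 5 largest calls and 3 most abundant uncalled genes of each list, 2 abundant neuronal markers, the 2 genes most alike each tested member, and those said to be named after their values were seen. Some genes counted in these lists are not reported here by name. The histology, blood flow and qRT-PCR of the study were not analysed here.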

Additional observations from a re-analysis of the deposited data

How the results depend on the processing

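The log2 fold changes of the 7 tested members had the same direction under all 17 alternatives, and the calls of Stab1 and Cd14 held under each. The settings without the fold threshold and with glmTreat use the fold changes of the main fit, so no direction could change there. Msr1 and Cd5l were also called under each, but they entered the test through BCAS mice alone. Neither their direction nor their calls are thus support for their difference. Colec12 was lost with glmTreat alone. The number of members called was 4 to 6, where 6 includes Olr1 (DESeq2, no filter, and without BCAS replicate 1). Olr1 was also tested without each sham mouse in turn and was not called in those fits. Leaving out each mouse in turn gave 5 to 6 members, 1306 to 1976 DEGs, and, for the lists, 8 to 12 other scavenger receptors and SRCR proteins, 9 to 11 partners of CD14, 8 to 9 lipid genes and 7 ligands and partners. The lowest number of DEGs and of other scavenger receptors came without BCAS mouse 3. DEGs numbered 5819 without the fold threshold and 818 with glmTreat, against 1762. With glmTreat 6 in place of 12 other scavenger receptors passed, and without the fold threshold 15 in place of 8 lipid genes. The level of Olr1 against the microglia markers was -0.36 and reversed to 0.49 with a prior count of 0.5 and to 0.43 without BCAS replicate 1. It rests on few counts, and over the 6 mice left out it ran from -0.88 to 0.43. On Csf1r, Aif1 and C1qa alone the gains of Cd14 and Msr1 fell from 0.88 to 0.25. No other member with counts reversed on this measure, and Marco gives no value on it. Library totals in place of TMM moved the median log2 fold change of all genes from 0.018 to 0.095.

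Residuals of sham and BCAS mice with the same number in the titles correlated at 0.036, -0.314 and -0.158. By the numbers in the column names, which the groups share for only 2 pairs, these correlations were 0.223 (sham mouse 2 with BCAS mouse 1) and 0.347 (sham mouse 3 with BCAS mouse 2). With the replicate block 5 members and 1595 DEGs were called, and with a block by column numbers, added after seeing the data, 5 members and 1327 DEGs. No call of a member changed with either block. Neither numbering is known to mark a shared litter, batch or day. Depth limits Olr1, Marco and the sham levels of Msr1 and Cd5l.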
